A study of Homo sapiens with 15 samples.

Results

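The comparison set poly(A) site use in HEK293T cells carrying a short hairpin RNA (shRNA) against HDAC1 against the mean of 5 other knockdowns. HEK293T is a line derived from human embryonic kidney. Beside shHDAC1 stood shZNF384, shU2AF2, shSF3B4, shPCBP2 and shPABPN1, with 2 libraries in each group, so 12 of the 15 libraries of the study entered the comparison. The labels give no clone, culture time or hairpin sequence for any group, and nothing says that the libraries of a group came from separate cultures, so p-values measure only the spread between these samples, which may be technical. The 3 libraries of shControl, a control hairpin, stand in neither arm, and their values are given as a description. Library names of shControl carry the suffix nuc, which those of the knockdowns lack, so hairpin and preparation cannot be told apart where shControl values are set beside the others.

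PDUI, a distal site usage index, was measured: it estimates, as a fraction, how much of a gene's RNA ends at its distal poly(A) site, so that a low value stands for mostly proximal ends. Genes entered the test where all 12 knockdown libraries had a value, which held for 11463 of 13056 genes. Between 1.37% and 4.49% of the table's genes were without a value in a single knockdown library. The depth behind a fraction is unknown, since the values come without read counts.

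Most human genes can end their transcripts at more than 1 site, and the choice between a proximal and a distal site sets how much 3′ UTR the mRNA carries. The longer form holds more binding sites for microRNAs and RNA-binding proteins. HDAC1 is the catalytic subunit of the Sin3, NuRD and CoREST corepressor complexes and removes acetyl groups from histones and other proteins. Of the reference knockdowns, PABPN1 is the nuclear poly(A)-binding protein, PCBP2 a KH-domain protein that binds C-rich RNA, SF3B4 and U2AF2 are factors of 3′ splice site recognition, and ZNF384 is a zinc finger protein.

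The comparison asks which genes have a PDUI in HDAC1 knockdown cells that sets them apart from cells with another regulator reduced. PDUI was lower in HDAC1 knockdown for 530 genes and higher for 85, so 86.2% of the called genes leaned towards the proximal site. Together these were 615 genes, 5.37% of those tested (4.62% lower, 0.742% higher; limma, adjusted p under 0.05). The median difference was −0.10 among the lower genes and 0.13 among the higher ones. Over all tested genes the median difference was 0, with 5723 genes below 0 and 5198 above, so the typical gene did not share this lean. For 324 of the called genes the difference was 0.1 or more in size, 268 lower and 56 higher.

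**Figure D1:**
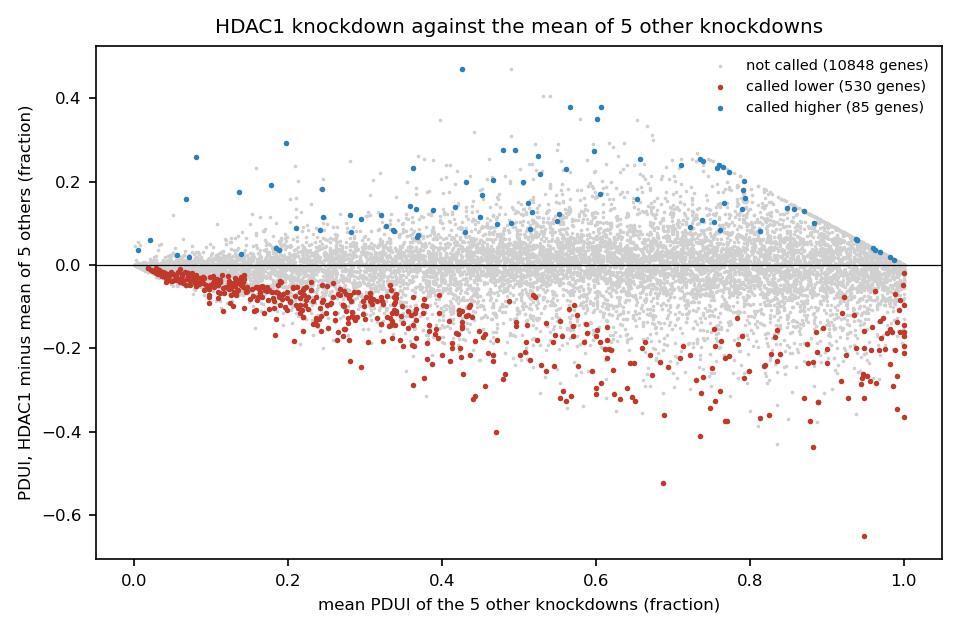
Each point is 1 of 11463 genes, with the mean PDUI of the 5 other knockdowns on the x axis (fraction) and the HDAC1 mean minus that mean on the y axis (fraction). Red points are the 530 genes called lower and blue points the 85 called higher, and the red points crowd at the left, where PDUI is low in the other knockdowns.

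Called falls were most frequent among genes with a low mean PDUI in the other knockdowns, which is also the reference of the difference and not a starting level. Where the mean of the other knockdowns was under 0.2, 189 of 1742 genes were lower (10.8%), and between 0.2 and 0.4 it was 152 of 1842 (8.25%). Above that the share was 2.11% to 2.95%. Called rises made up between 0.418% and 0.956% of the genes at every level. Genes near 0 or 1 can move in 1 direction only, and 69 of 3111 genes with a reference mean of 0.8 and over were lower.

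A difference from a mean of 5 groups can rest on 1 of them, so the HDAC1 libraries were also placed among the 10 others. In 306 of the lower genes (2.67% of all tested) both HDAC1 libraries lay below every one of the 10 others, and in 46 of the higher genes (0.401%) both lay above. The other 224 lower and 39 higher genes overlapped with at least 1 library of another knockdown. The 306 differences ran from −0.65 to −0.01 with a median of −0.14, and the 46 rises from 0.02 to 0.47 with a median of 0.15. HDAC1 was not the group with most such genes: both PABPN1 libraries lay below the 10 others in 1650 genes, both HDAC1 libraries in 546 (4.76%) whether called or not, and both libraries of each of the other 4 groups in 48 to 333. Both HDAC1 libraries lay above the 10 others in 153 genes (1.33%). The same held for 150 genes in PCBP2, 278 in PABPN1, 282 in ZNF384, 388 in SF3B4 and 428 in U2AF2.

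The annotated 3′ ends of genes that carry these differences are printed because the hexamer AATAAA, or its variant ATTAAA, is the signal by which cleavage and polyadenylation factors recognise a poly(A) site. Each line gives the last 30 bases, 5′ to 3′, of a transcript in GENCODE 29 (GRCh38), and capitals mark AATAAA or, where that is absent, ATTAAA. The first 6 lines belong to genes called lower, and the last 3 to genes called higher. The annotated end is that of the transcript the table names, and need not be the site the authors' method called; for CCND2 and AGO1 GENCODE 29 holds another version of that transcript.
VMA21, distal end, chrX:151409335-151409364, plus strand: atgtcATTAAAaaaagtgtttgtagtgcta
VMA21, a nearer annotated end in the same exon, chrX:151405128-151405157, plus strand: atttgAATAAAgttgaaagaacatgttaaa
HNRNPA3, chr2:177223929-177223958, plus strand: cagtaagtAATAAAacaacaggaaacttgg
CCND2, chr12:4305321-4305350, plus strand: gctatttggacAATAAActcaccttgacct
JMJD6, chr17:76712832-76712861, minus strand: ttttaAATAAAgcaacatgatttggagttg
AGO1, chr1:35930499-35930528, plus strand: acgaggcgctATTAAAgagttttaaacatg
KDM6B, chr17:7854767-7854796, plus strand: ttaatattaaaAATAAAcggagaaaaaaaa
TNFRSF21, chr6:47231532-47231561, minus strand: aatttattAATAAAcattaggtgtttgtta
WWTR1, chr3:149517235-149517264, minus strand: ataagaaaAATAAAgacaattgaacttcca

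In VMA21, the distal end with ATTAAA lies 4207 bases beyond a nearer end with AATAAA. Across the genes the annotated ends held the hexamers in similar shares. AATAAA stood in the last 30 bases of 50.8% of the lower genes, 53% of the higher genes and 50.8% of all tested genes found in GENCODE 29. ATTAAA without AATAAA stood in 12.3%, 14.5% and 12.7%. Both motifs were searched on the transcript strand alone, and a match describes the letters in this window and no more.

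The largest falls with both HDAC1 libraries below all others were in genes of diverse function. Each value belongs to 1 transcript of a gene, which need not be its coding mRNA. Among genes found in GENCODE 29, it was not listed as protein coding for 14.4% of lower, 19.3% of higher and 19.7% of all genes. For AP2A1 it is listed as a retained intron. AP2A1, a subunit of the AP-2 clathrin adaptor, stood at 0.08 and 0.06 in HDAC1 knockdown, while the other libraries ran from 0.18 through a median of 0.31 to 0.85. The SF3B4 and U2AF2 libraries were the high ones, at 0.80 to 0.85, and the PABPN1, PCBP2 and ZNF384 libraries reached at most 0.34. The difference of −0.40 had an SE of 0.0224 (limma, adjusted p = 0.000579). PURB, which binds purine-rich single strands, was at 0.44 and 0.45 against 0.6 to 0.97 with a median of 0.81. Its lowest reference libraries were those of SF3B4, at 0.6 and 0.67, and the difference was −0.37 (SE 0.0358, limma, adjusted p = 0.00438). KHK, the ketohexokinase of fructose metabolism, was at 0.45 and 0.44, whereas the other libraries had a lowest value of 0.64, a median of 0.95 and a highest of 1 (difference −0.44, SE 0.049, limma, adjusted p = 0.00773).

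PDK3, a pyruvate dehydrogenase kinase, was at 0.26 and 0.39, against 0.57 to 0.86 with a median of 0.75 in the others. The PDK3 transcript is listed as sense overlapping, not as protein coding. LYRM7, an assembly factor of respiratory complex III, was at 0.49 and 0.52, against 0.66 to 1 with a median of 0.87. Their differences were −0.41 and −0.37, both with an adjusted p of 0.0133 by limma. TOP3A, a DNA topoisomerase, the divergent transcript EIF2AK3-DT and VGLL2, a cofactor of TEAD transcription factors, were lower by 0.36, 0.38 and 0.36. The TOP3A transcript is listed under nonsense-mediated decay. The calls of KHK, PDK3, LYRM7 and TOP3A were lost with either HDAC1 library left out, and that of EIF2AK3-DT with 1 of them left out. LYRM7 also lost its call on the logit scale, and VGLL2 under 16 of 26 alternatives, 14 of which keep both HDAC1 libraries.

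The largest difference of all, −0.65 in the long non-coding RNA AC010680.4, came from HDAC1 libraries that disagreed, 0.11 and 0.49, with the others at 0.79 to 1. BUD23, an rRNA methyltransferase, was at 0.33 and 0.001, with the others at 0.39 to 1 (difference −0.52, limma, adjusted p = 0.0376), and its call was lost under 13 of 26 alternatives, 11 of which keep both HDAC1 libraries. The BUD23 transcript is listed under nonsense-mediated decay. The transcripts of AC010680.4, BUD23, KHK, AP2A1 and PURB overlap another annotated gene in the last exon, and whether strand was used in making the PDUI values is not given in the sources used here. Reads of overlapping genes cannot be told apart without strand. Such overlaps held for 30.3% of the lower genes, 19.3% of the higher genes and 25.7% of all.

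Rises were fewer. WWTR1, the Hippo pathway coactivator also called TAZ, stood at 1 and 0.9 in HDAC1 knockdown, and the other libraries ran from 0.37 through a median of 0.595 to 0.77 (difference 0.35, SE 0.0651, limma, adjusted p = 0.0282). KDM6B, a demethylase of histone H3 lysine 27, was at 0.89 and 0.85, with the others between 0.45 and 0.71 and a median of 0.62 (difference 0.27, SE 0.0354, limma, adjusted p = 0.011). TNFRSF21, known as death receptor 6, was at 0.96 and 0.86, with the others between 0.52 and 0.76. In these 3 genes no reference library reached either HDAC1 library.

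KIF21A, a kinesin, was at 1 in both HDAC1 libraries and between 0.55 and 0.93 elsewhere (difference 0.24, SE 0.0326, limma, adjusted p = 0.0122). ZNRF1, an E3 ubiquitin ligase, was at 1 and 0.98 against 0.51 to 0.94. The transcripts of both KIF21A and ZNRF1 are listed as retained introns. The interferon-induced gene IFI27 was at 0.58 and 0.40 against 0.02 to 0.34. UGGT2, a glycoprotein folding sensor, was at 0.26 and 0.42 against 0.001 to 0.15. Among the 12 largest rises were AC024243.1 (difference 0.47), AC011450.1 (0.38), AC138649.1 (0.28) and ARHGAP27P1-BPTFP1-KPNA2P3 (0.28), which GENCODE 29 lists as non-coding, and AC022966.2 (0.38), whose transcript was not found there. With either HDAC1 library left out, every one of the 12 largest rises lost its call. Under alternatives that keep both, the calls of IFI27, UGGT2 and WWTR1 were lost in 17, 15 and 6. Those of AC024243.1, AC011450.1 and AC138649.1 were lost in 4, 3 and 2, and those of TNFRSF21 and ZNRF1 in 1 each. KDM6B, KIF21A, AC022966.2 and ARHGAP27P1-BPTFP1-KPNA2P3 kept theirs in all of these.

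**Figure D2:**
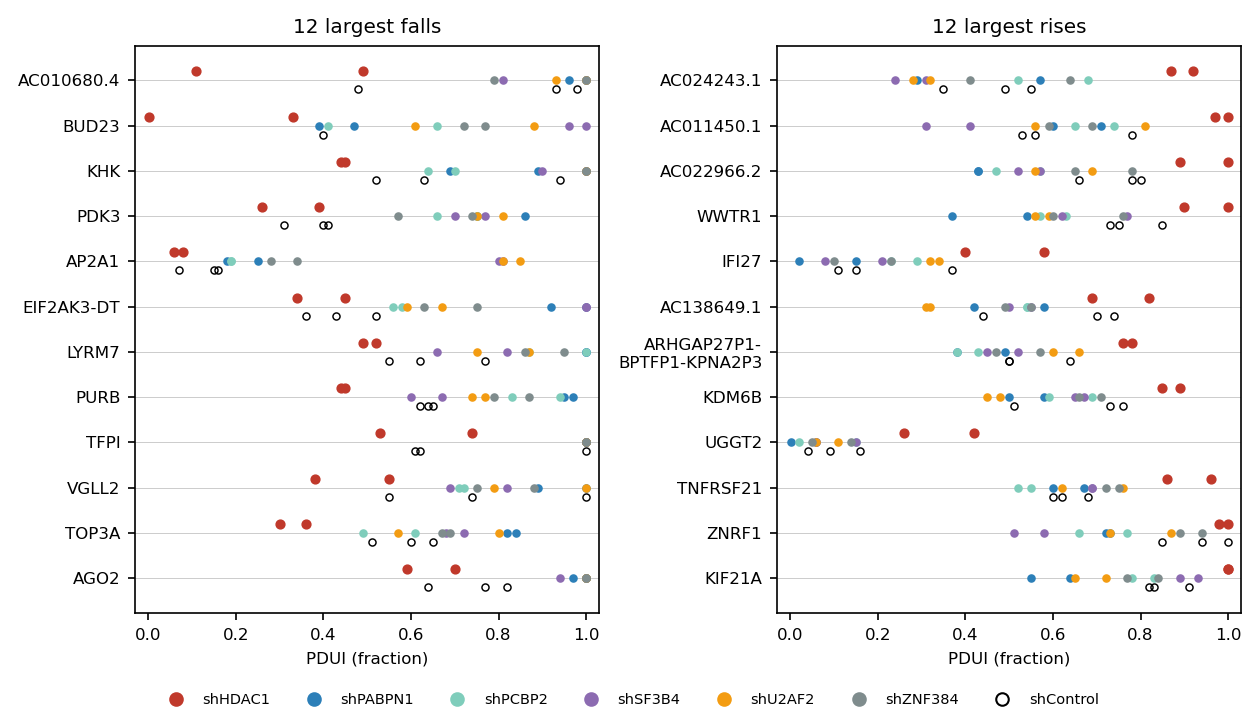
PDUI (fraction, x axis) of the 12 largest falls and 12 largest rises with both HDAC1 libraries beyond the 10 others. Each filled point is a knockdown library, red for HDAC1, and open circles are shControl libraries. In PDK3 the open circles overlap the red points, and in TOP3A and PURB they lie among the other knockdowns.

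Some called genes differed from the reference mean while sharing their level with 1 or more of the other knockdowns. FOXD2, a forkhead transcription factor, was at 1 in both HDAC1 libraries and at 1 in the SF3B4 and U2AF2 libraries too. It stood at 0.44 and 0.45 in PABPN1, 0.57 and 0.58 in PCBP2, and 0.82 and 0.79 in ZNF384 (difference 0.24, SE 0.0128, limma, adjusted p = 0.000579). CCDC50, an effector of EGF receptor signalling, was at 0.33 and 0.36 in HDAC1 and at 0.35 and 0.33 in SF3B4, while the other 8 libraries had 0.6 to 1. AC100830.3 and REX1BD among the falls, and LIG4, the DNA ligase of end joining, and CENPBD1 among the rises, also overlapped with 1 or more groups. Their differences were −0.37, −0.28, 0.26 and 0.26, and the REX1BD transcript is listed as a retained intron. The calls of CCDC50, REX1BD and CENPBD1 were lost under 11, 10 and 14 of the alternatives that keep both HDAC1 libraries. Those of AC100830.3 and LIG4 were lost under 1 each, and that of FOXD2 under none.

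The same fit gave HDAC1 minus each knockdown in turn, and these 5 comparisons share the HDAC1 libraries. Against PABPN1, 631 genes were lower (5.5%) and 587 higher (5.12%), 10.6% of the tested genes in all. Against U2AF2, 699 were lower (6.1%) and 210 higher (1.83%), 7.93% in all, and against SF3B4, 417 were lower (3.64%) and 119 higher (1.04%), 4.68% in all. Against ZNF384, 203 were lower (1.77%) and 12 higher (0.105%), 1.88% in all. Against PCBP2, 128 were lower (1.12%) and 19 higher (0.166%), 1.28% in all. The order of these counts depended on the fit: centring the libraries gave 34 calls against ZNF384 and 71 against PCBP2, and a fit of all 15 libraries gave 953 against U2AF2 and 831 against PABPN1. Of the 530 genes lower than the mean of 5, 20 passed against each of the 5, 58 against 4, 128 against 3, 237 against 2, 82 against 1 and 5 against none. Of the 85 higher genes none passed against all 5, and 4 passed against 4.

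The 20 genes that passed in the same direction against each of the 5 (0.174% of those tested) were all lower in HDAC1 knockdown. Among them, 3 were at 1 in all 10 reference libraries with HDAC1 libraries close to each other. JMJD6, a jumonji-domain hydroxylase, was at 0.80 and 0.81 (difference −0.20, SE 0.00287, limma, adjusted p = 4.289e-07). FANCC, of the Fanconi anaemia DNA repair complex, was at 0.83 and 0.85, and AFAP1, an actin-binding protein, at 0.91 and 0.90. TFPI, the tissue factor pathway inhibitor of coagulation, was also at 1 in the 10 others, but its HDAC1 libraries were apart, at 0.53 and 0.74 (difference −0.36, SE 0.0435, limma, adjusted p = 0.00856). A reference group with no spread leaves the test to rest on few libraries and on the variance borrowed from other genes. No group had any spread in 471 tested genes.

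VMA21, an assembly factor of the vacuolar proton pump, was at 0.57 and 0.69, and the other libraries ran from 0.83 through 0.965 to 1 (difference −0.32, SE 0.0377, limma, adjusted p = 0.00856). The SF3B4 libraries, at 0.89 and 0.83, and 1 PCBP2 library, at 0.88, came nearest. NBPF20 was at 0.76 and 0.69 with the others at 0.92 to 1, but belongs to a family of near-identical copies, so reads may be split among them and its value is uncertain.

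HNRNPA3, an RNA-binding protein of the hnRNP A/B family, was at 0.21 and 0.22 in HDAC1 knockdown. Each other group had a pair of close values well above this, 0.33 and 0.34 in SF3B4, 0.38 and 0.40 in PCBP2, 0.41 and 0.39 in ZNF384, 0.47 and 0.44 in U2AF2 and 0.48 and 0.49 in PABPN1. The smallest of the 5 differences was −0.12, from SF3B4 (limma, adjusted p = 0.00625). SC5D, a sterol desaturase, was at 0.19 in both HDAC1 libraries and 0.26 to 0.36 elsewhere, SH3BP2, an adaptor protein, at 0.18 and 0.16 against 0.26 to 0.44, CREB5, a transcription factor of the CREB family, at 0.80 and 0.75 against 0.93 to 1, and VPS4A, an ATPase that disassembles ESCRT-III, at 0.13 and 0.12 against 0.17 to 0.28. FANCC, AFAP1, SC5D, SH3BP2, CREB5 and VPS4A were picked from the 20 after their values were seen. The rest were KIF20B, CIAO1, PEX26, TBC1D23, WDR13, FAM122A, GAS2L1, CCND2, and AGO2.

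AGO2, the Argonaute protein that cleaves microRNA targets, was at 0.70 and 0.59, while the others ran from 0.94 through a median of 1 to 1. The difference was −0.35 (SE 0.0268, limma, adjusted p = 0.00243). AGO1, a related Argonaute, was at 0.63 and 0.74 against 0.78 to 1 with a median of 1, and the SF3B4 libraries, at 0.80 and 0.78, lay nearest to HDAC1 (difference −0.27, SE 0.025, limma, adjusted p = 0.00438). XPO5, the exporter of microRNA precursors, was at 0.68 and 0.74 against 0.79 to 1. Its call was lost on the logit scale and without U2AF2 in the reference. With TNRC6C, a partner of Argonaute proteins in silencing, 4 of 27 tested genes of the microRNA pathway and deadenylase list were lower and none higher. That is 14.8% called beside 5.37% of all tested genes, and the list's median difference was −0.03 beside 0. Last exons of 4000 bases or more were held by 11 of the 27, among them 2 of the 4 lower genes.

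Genes long known for regulated 3′ UTRs had the highest count among the lists of pathways. Of 36 tested genes, 10 were lower and none higher (27.8%, beside 5.37% of all tested genes), with a median difference of −0.03. This list and the others were chosen with earlier results of these data known, so their shares are a description and no independent support. VMA21, CCND2, ELAVL1, TSC1 and TMEM106B were among the lower genes. The last exons of this list were long, with a median of 3994 bases beside 1407 over all tested genes, and 7 of the 10 lower genes were among its 18 members with a last exon of 4000 bases or more.

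**Figure D3:**
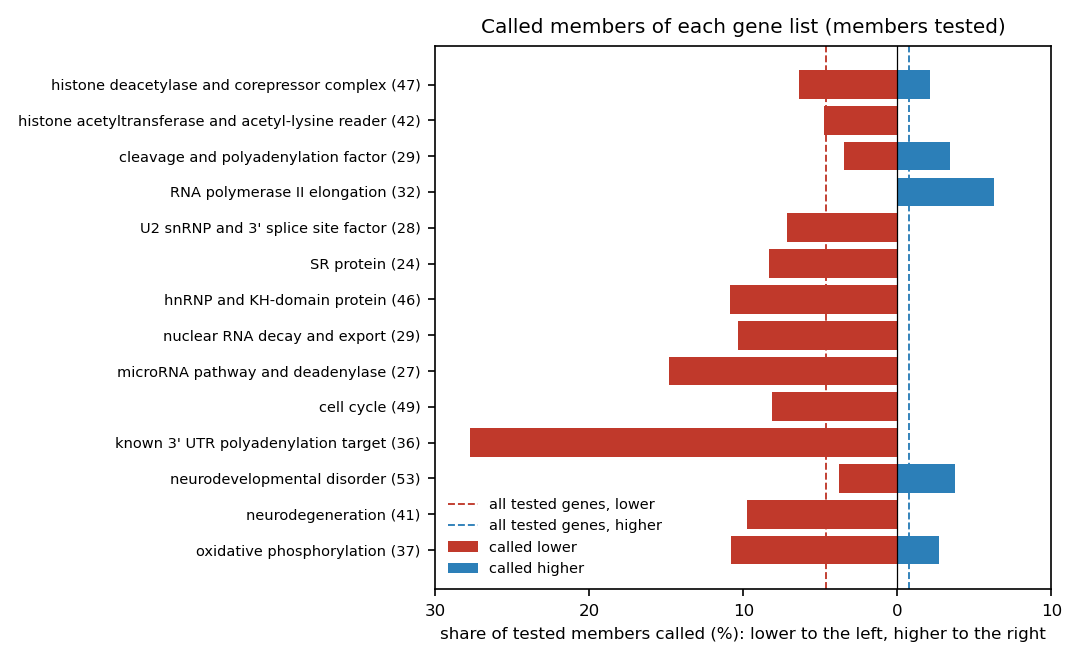
Share of each list's tested members (x axis, percent) called lower, drawn to the left in red, and called higher, drawn to the right in blue; the number in brackets is the members tested. Dashed lines give the shares over all tested genes, 4.62% lower and 0.742% higher, and the longest bar is that of the known 3′ UTR targets. The lists were chosen with earlier results of these data known.

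Of 47 tested members of deacetylase and corepressor complexes, to which HDAC1 belongs, 3 were lower and 1 higher (8.51%, beside 5.37% of all tested genes), with a median difference of −0.001. HDAC2, the closest paralog of HDAC1, was at 0.01 in both HDAC1 libraries and in 8 of the 10 others, so its call came from 0.05 in both U2AF2 libraries. SAP18, of the Sin3 complex, was at 0.07 and 0.08 within a range of 0.07 to 0.14, and ARID4A, a Sin3-associated DNA-binding protein, at 0.34 and 0.38 with the others at 0.19 to 0.34 (difference 0.11, limma, adjusted p = 0.0314). HDAC5 was the third lower member. The calls of HDAC2, SAP18 and ARID4A were lost under 13, 18 and 9 of the alternatives that keep both HDAC1 libraries. Of 42 acetyltransferases and acetyl-lysine readers, 2 were lower and none higher (4.76%). These were KAT7, at 0.06 and 0.07 within 0.04 to 0.15, and SUPT7L, a SAGA subunit, at 0.14 and 0.16, overlapping the PCBP2 and ZNF384 libraries. With both HDAC1 libraries kept, KAT7 lost its call under 11 alternatives and SUPT7L with the libraries centred.

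The transcripts of the 3′ end machinery itself were called at 6.9%, with 1 of 29 lower and 1 higher. The share over all tested genes was 5.37%. CPSF6, the larger subunit of cleavage factor I, which favours distal sites, was at 0.54 and 0.55 in HDAC1 knockdown. It was lower still in SF3B4, at 0.42 and 0.41, and at 0.77 to 1 in the remaining 8 libraries (difference −0.25, SE 0.0357, limma, adjusted p = 0.0127). PPP1CB, a phosphatase catalytic subunit, was at 0.46 and 0.42 within a range of 0.28 to 0.46. The call of CPSF6 was lost on the logit scale and that of PPP1CB under 18 of 26 alternatives. Of 32 genes of RNA polymerase II elongation none was lower and 2 were higher (6.25%). LEO1, of the PAF1 complex, was at 0.25 and 0.20 with the others at 0.03 to 0.11 (difference 0.16, limma, adjusted p = 0.0133), and CDK13, a kinase of the polymerase tail, at 0.22 and 0.23 with the others at 0.15 to 0.22. The call of LEO1 was lost on the logit scale, and that of CDK13 under 21 of 26 alternatives.

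Among RNA-binding proteins of the hnRNP and KH-domain classes, 5 of 46 were lower and none higher. That is 10.9% beside 5.37% of all tested genes, although the list's median difference was 0.0055. Last exons of 4000 bases or more were held by 11 of the 46, among them 4 of the 5 lower genes. TARDBP, which encodes TDP-43, was at 0.24 in both HDAC1 libraries with the others from 0.30 to 0.43 and a median of 0.355 (difference −0.12, SE 0.0135, limma, adjusted p = 0.00773). HNRNPDL, at 0.23 and 0.21, overlapped with PCBP2 and ZNF384 and lay below PABPN1, SF3B4 and U2AF2, which had 0.38 to 0.43. HNRNPA3 is described above, and ELAVL1 and FXR1 made up the rest.

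Splicing factors were called at 7.14% among U2 snRNP and 3′ splice site factors (2 of 28 lower) and at 8.33% among SR proteins (2 of 24 lower). Among all tested genes 5.37% were called. SRSF1, an SR protein, was at 0.12 in both HDAC1 libraries and 0.12 to 0.34 in the others, with SF3B4 at the same level. SF3B1, the largest SF3b subunit, was at 0.05 with the others at 0.05 to 0.11. With both HDAC1 libraries kept, SRSF1 lost its call without U2AF2 in the reference and SF3B1 with the libraries centred. SRRM2, at 0.55 and 0.61, and CHERP, at 0.88 and 0.92, lay below all others, at 0.65 to 0.88 and 0.94 to 1, but lost their calls under 12 and 18 of the alternatives that keep both HDAC1 libraries. The SRRM2 transcript is listed as a processed transcript, not as protein coding.

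Nuclear RNA decay and export had 3 of 29 lower and none higher (10.3%, beside 5.37% of all tested genes). MTREX, the helicase of the nuclear exosome, was at 0.03 in both HDAC1 libraries. The SF3B4 libraries were close by at 0.04 and 0.05, and the remaining 8 libraries stood at 0.10 to 0.18 (difference −0.10, SE 0.0098, limma, adjusted p = 0.00438). EXOSC6, an exosome subunit, and THOC5, of the THO export complex, had differences of −0.06 and −0.02, and neither was called with the libraries centred. EXOSC6 was higher in HDAC1 than in U2AF2, by 0.065 (limma, adjusted p = 0.0113).

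Cell cycle genes were called at 8.16%, beside 5.37% of all tested genes, with 4 of 49 lower and none higher. CCND2, which encodes cyclin D2, was at 0.79 and 0.88 and the others at 0.96 to 1 (difference −0.16, SE 0.0205, limma, adjusted p = 0.0102). MCM2, of the replicative helicase, was at 0.02 in both HDAC1 libraries with the others at 0.03 to 0.08, and CDT1, which loads that helicase, at 0.22 and 0.23 with the others at 0.22 to 0.56. TFDP2 was the fourth. The MCM2 transcript is listed as a retained intron, and its call was lost with the libraries centred.

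Oxidative phosphorylation had 4 of 37 lower and 1 higher (13.5%, beside 5.37% of all tested genes), with a median difference of 0. Last exons of 4000 bases or more were held by 6 of the 37, among them 3 of the 4 lower genes. NDUFV3, of complex I, was at 0.11 and 0.12 with the others at 0.13 to 0.33 (difference −0.09, limma, adjusted p = 0.0113). COX7B, of complex IV, and NDUFA9, of complex I, stood at the floor of the scale, at 0.01 in both HDAC1 libraries. The other knockdowns had 0.02 to 0.06 and 0.02 to 0.03, and shControl had 0.01 to 0.02 and 0.01. Both calls were lost with the libraries centred.

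Of 41 neurodegeneration genes 4 were lower and none higher (9.76%), and of 53 neurodevelopmental genes 2 were lower and 2 higher (7.55%). The share over all tested genes was 5.37%. HTT, which encodes huntingtin, was at 0.16 in both HDAC1 libraries with the others at 0.18 to 0.32 (difference −0.08, SE 0.00845, limma, adjusted p = 0.00754). The partners of the tuberous sclerosis complex were called in opposite directions. TSC1 was at 0.50 and 0.54 with the others at 0.59 to 1 (difference −0.27, limma, adjusted p = 0.0207), and TSC2 at 0.43 and 0.44 with the others at 0.35 to 0.39 (difference 0.07, limma, adjusted p = 0.0257), where PKD1 overlaps the last exon of TSC2. The call of TSC1 was lost without SF3B4 or without U2AF2 in the reference, whose libraries stood at 0.97 to 1, and that of TSC2 with the libraries centred and under 6 other alternatives. TMEM106B, a lysosomal protein, was at 0.04 and 0.06 and overlapped with SF3B4. Its call was lost with the libraries centred and without U2AF2 in the reference.

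A PDUI value shows that reads supported an estimate and does not give the level of a gene. Of 24 markers of other cell types 5 had a row and 4 were tested. Among these COL1A1, a collagen of fibroblasts, was lower, at 0.11 and 0.12 with the others at 0.14 to 0.20. The COL1A1 call was lost under 8 of the alternatives that keep both HDAC1 libraries. Of 12 markers of HEK293 cells 10 were tested and none was called. The 6 targeted genes were not called in this fit either. For HDAC1 the transcript with values is listed as a retained intron, not as protein coding. That transcript was at 0.78 and 0.77 in the HDAC1 knockdown and 0.58 to 1 elsewhere (difference −0.08, SE 0.031, limma, adjusted p = 0.253). On the logit scale HDAC1 was called lower (limma, adjusted p = 0.016), and also without either PABPN1 library or that group, with an adjusted p of 0.00524 to 0.0361. PDUI gives the choice of site and not the amount of RNA, so the strength of the knockdowns was not checked.

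The genes called lower differed from the rest in the length of their last exon, which the choice of genes had not used. The median last exon was 3542 bases among the lower genes, 1527 among the higher genes and 1353 among genes not called. Of 1437 genes with a last exon of 4000 bases or more, 233 were lower (16.2%) and 7 higher (0.487%), and 67.2% of them had a difference below 0, with a median of −0.02. In the bins of shorter last exons the share of lower genes was 1.86% to 4.88%.

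The mean PDUI of each library over these 1437 long genes was 0.51 and 0.513 for HDAC1, 0.533 to 0.573 for the 10 other knockdown libraries and 0.517 to 0.524 for shControl. Both HDAC1 libraries thus lay below every other library there. The group nearest to HDAC1 among the knockdowns was SF3B4, at 0.537, and the farthest ZNF384, at 0.569. In the 4 bins of shorter exons at least 1 reference library lay below both HDAC1 libraries, and for exons under 2000 bases these were the PABPN1 libraries. With the mean over all tested genes subtracted from each library, HDAC1 stood at −0.0458 and −0.045 in the long genes, the other knockdowns at −0.0295 to 0.0299 and shControl at −0.0394 to −0.00473. On the same scaling HDAC1, at 0.0598 and 0.0612, lay above all 10 other knockdown libraries, at 0.0412 to 0.0584, for last exons from 1000 to under 2000 bases. This scaling was chosen after the data were seen. Values of 1 library over many genes are not independent, so the order is a description without a test.

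**Figure D4:**
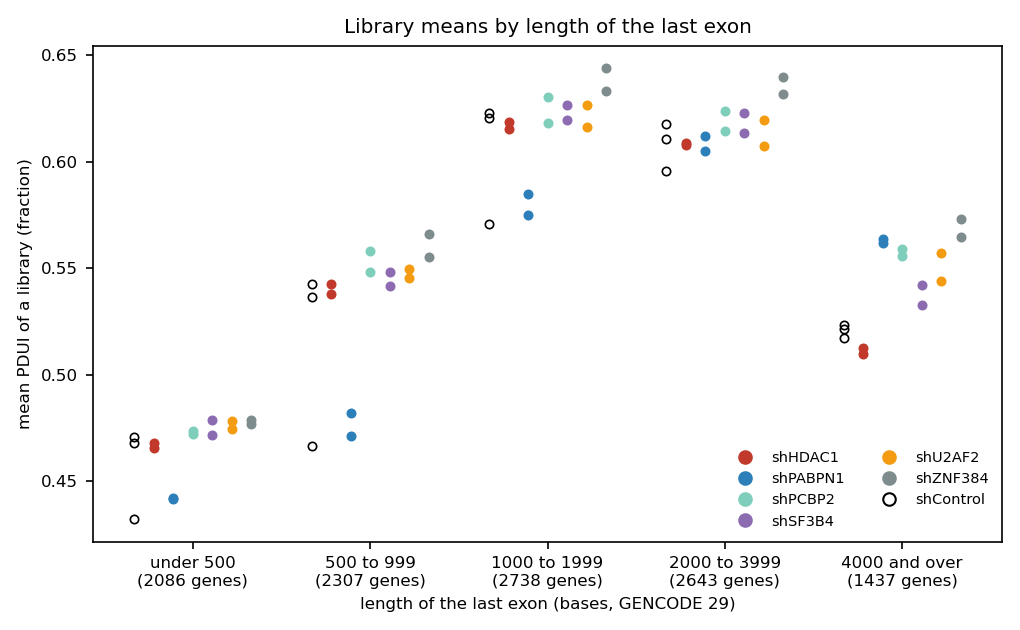
Mean PDUI (fraction, y axis) of each library over the tested genes in 5 bins of last exon length (x axis, bases); each point is 1 library, red for HDAC1 and open circles for shControl. In the bin of 4000 bases and over the red points, at 0.51 and 0.513, are the lowest of all 15.

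Over all tested genes the libraries of HDAC1 averaged 0.556 and 0.558. The PABPN1 libraries were lower, at 0.534 and 0.540, and the other 8 knockdown libraries higher, at 0.562 to 0.586. The difference from the mean of the other groups was −0.00803, which an exact two-sided permutation test with 66 arrangements did not set apart (p = 0.545). These arrangements mix single libraries of different knockdowns, which are not exchangeable, so the test cannot decide whether the HDAC1 group differs.

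The shControl libraries had no part in the test, and for the genes that set HDAC1 apart they show on which side the control lay; these genes were chosen by their HDAC1 values, so this is a description. Of the 306 lower genes, 305 had at least 2 shControl values, and the shControl mean lay nearer to HDAC1 than to the mean of the other knockdowns in 239 of them (78.4%). In 37 the control was at or below HDAC1, and in 11 at or above the mean of the others. Over all tested genes with such values, the control was nearer to HDAC1 in 45.8%. The first shControl library stood apart, with a mean PDUI of 0.522 over the tested genes beside 0.561 in both others. Without it, a calculation added after the data were seen, the control was nearer to HDAC1 in 248 of 305 lower genes (81.3%) and in 49.5% of all.

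The median PDUI of these 305 genes was 0.22 in HDAC1 and 0.24 in shControl. It was 0.315 in PCBP2, 0.33 in ZNF384, 0.345 in SF3B4, 0.375 in PABPN1 and 0.415 in U2AF2. The group farthest from HDAC1 was U2AF2 in 118 genes, PABPN1 in 91, SF3B4 in 55, PCBP2 in 22 and ZNF384 in 19. In these genes the medians of the 5 other knockdowns were thus above those of both HDAC1 and shControl.

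The PDK3 transcript, which is not listed as protein coding, shows this pattern, with shControl at 0.40, 0.41 and 0.31 overlapping the HDAC1 libraries. HNRNPA3 was at 0.27 in each shControl library, between HDAC1 and the nearest knockdown, SF3B4. AGO2 was at 0.82, 0.77 and 0.64 in shControl, overlapping HDAC1 at the lower end. Other genes went the opposite way: JMJD6 was at 1 in both shControl libraries with a value, and AFAP1 was at 1 in all 3, the level of the reference knockdowns. TFPI split, with shControl at 1, 0.61 and 0.62.

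The 46 higher genes were placed differently. The shControl mean was nearer to HDAC1 in 10 of them (21.7%), or in 19 (41.3%) without the first shControl library. It was at or beyond the mean of the others in 8. Their median PDUI was 0.667 in HDAC1, 0.555 in shControl and 0.504 over the other knockdowns. TNFRSF21 had 0.62, 0.60 and 0.68 in shControl, inside the range of the other knockdowns, and KIF21A 0.83, 0.91 and 0.82, below the value of 1 in both HDAC1 libraries.

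**Figure D5:**
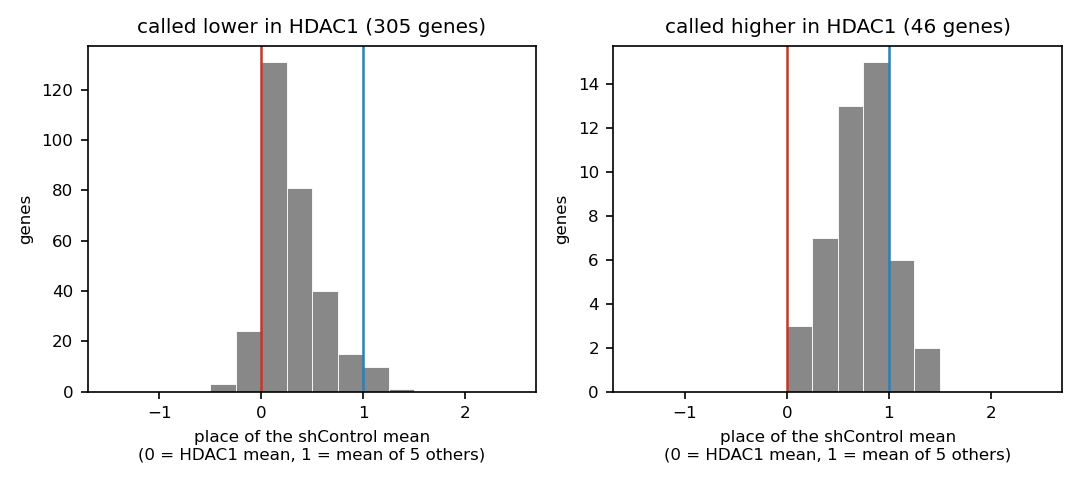
Place of the shControl mean between the HDAC1 mean (0, red line) and the mean of the 5 other knockdowns (1, blue line), for the 305 genes called lower and the 46 called higher whose HDAC1 libraries lay beyond all others; the y axis counts genes. The median place was 0.242 for lower genes, near HDAC1, and 0.76 for higher genes, nearer the other knockdowns with all 3 shControl libraries in the mean.

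The number of calls depended on both HDAC1 libraries and on the U2AF2 group. With 1 HDAC1 library left out, 118 or 164 genes were called, and with U2AF2 taken out of the reference 328, of which 297 were among the 615. In each of these the lower genes were the majority, 109 of 118, 149 of 164 and 291 of 328. With each library centred on its median, 360 genes were called, 306 of them lower, and 137 of these lower genes had a last exon of 4000 bases or more.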

How the data were processed

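RNA of HEK293T cells was captured on oligo(dT) beads and sequenced, and per the labels both a nuclear and a total RNA kit were used. The authors deposited 1 table of PDUI values as a fraction from 0.001 to 1, for 1 transcript per gene, on hg38 per the submitters' processing notes. Which aligner, site caller and annotation made it is not given in the sources used here. Values were used as deposited. limma 3.58.1 in R 4.3.3 fitted 1 mean per knockdown group over 12 libraries, with eBayes and a trend (6 residual degrees of freedom, prior 1.02). The contrast was HDAC1 minus the mean of the other 5 group means, two-sided, with Benjamini-Hochberg adjustment over 11463 genes. The script was tested on simulated data. Last exons and ends came from GENCODE 29 by transcript identifier (97.8% of tested genes found, 53.7% with the same version).

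Columns of shSF3B4 were assigned to the group alone, because their replicate numbers differ between labels. Named genes were the 12 largest falls and rises beyond all other libraries, the 3 largest of each within range, up to 3 called members of each list by p, the 6 targeted genes and up to 5 genes passing against each of 5. Members and lists were chosen with earlier results of these data known. Some genes that the rule names are not reported here.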

Additional observations from a re-analysis of the deposited data

How the results depend on the processing

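Centring libraries on their medians gave 360 called genes, 306 lower and 54 higher, with 170 below all other libraries, and 71 calls against PCBP2, 335 against SF3B4 and 34 against ZNF384. On the logit scale 228 genes were called against PCBP2. Requiring a difference of 0.1 left 324, 268 lower and 56 higher, 191 below all others. Without U2AF2 in the reference the counts were 328, 291 lower and 37 higher, 198 below and 19 above all others. Leaving out 1 library gave 118 to 752 called genes, 109 to 628 lower and 9 to 124 higher, 88 to 360 below and 5 to 47 above all others; against single knockdowns it gave 428 to 1025 (PABPN1), 42 to 169 (PCBP2), 240 to 522 (SF3B4), 412 to 885 (U2AF2) and 47 to 213 (ZNF384). Without PABPN1, the group below HDAC1, the library mean differed by −0.015 and HDAC1 then held the lowest libraries by construction.

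The replicate numbers did not pair the samples (correlations of −0.013 to 0.0325 between same-numbered deviations over 10 pairs of groups). The fit with the replicate block gave 526 genes called, 92 against PCBP2 and 129 against ZNF384.

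Of 67 named called genes, 13 kept their call under every alternative run and 27 under every one that kept both HDAC1 libraries; none changed direction. The uncalled targeted genes PABPN1 (−0.074 to 0.006) and U2AF2 (−0.006 to 0.008) turned with single libraries left out, and U2AF2 (−0.02125) without the PABPN1 group. The HDAC1 transcript, a retained intron, was called on the logit scale and without PABPN1 libraries. The cause of these changes was not tested. Depth is unknown, so small fractions carry an unknown counting error.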
